A study of Mus musculus with 7 samples.

Results

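Cluster 8 of the authors' 16 clusters of mouse kidney cells carries messenger RNAs of both cell types of the collecting duct, and the question here was whether single cells of it hold both sets of genes at once. Its 110 cells were taken by the cluster number deposited for each of 43745 cells (0.251%). In each cell the detected genes of a principal set (Aqp2, Hsd11b2, Fxyd4 and Apela) and of an intercalated set (Atp6v1g3, Slc4a1, Slc26a4 and Foxi1) were counted, against the 870 cells of cluster 6 (principal-like) and the 1729 cells of cluster 7 (intercalated-like). All 110 cells of cluster 8 held at least 2 genes of each set, so the name double-marker cells fits their content. A cell here is a barcode, and 2 cells in a droplet were not told apart from a single cell with both sets.

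The kidneys came from 7 healthy adult C57BL/6 mice aged 4 to 8 weeks, whose sex the labels do not give. By the labels 4 mice were WT, and 1 mouse each was Cdh16CremTmG (Cre driven in tubule epithelium), SclCremTmG (Cre driven in endothelial and blood-forming cells) and of another CremTmG strain, where mTmG is a Cre-dependent membrane fluorescence reporter. Whole kidneys were dissociated and profiled by droplet sequencing of transcript 3′ ends, in which each captured molecule has a unique molecular identifier (UMI). The labels state 57979 cells and the matrix used here holds 43745. A number from 1 to 7 at the end of each barcode gives the cell's library. Which mouse each number stands for is not given in the sources used here, so no genotype was compared. Libraries are called by that number. The p-values test differences of medians paired within libraries, with libraries as the only units.

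The collecting duct takes up the last water and salt and sets the acid content of urine, and it does so with a mosaic of cell types. Principal cells respond to vasopressin and aldosterone, with the water channel Aqp2 and the epithelial sodium channel in the apical membrane. Intercalated cells carry a vacuolar proton pump (V-ATPase): type A cells secrete acid with the basolateral anion exchanger Slc4a1, and type B cells secrete bicarbonate with the apical exchanger Slc26a4 (pendrin). Foxi1 is the forkhead transcription factor needed for intercalated cells, while Notch signalling favours the principal fate.

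Libraries 1 to 6 gave 29, 19, 4, 4, 15 and 39 cells of cluster 8, and library 7 gave 0 of 5342 cells, which allows a share of up to 0.0562%. Most of the cells came from libraries 1 and 6. As a share of a library's cells, cluster 8 made up 0.985% of library 1, 0.375% of library 2, 0.289% of library 3, 0.148% of library 4, 0.106% of library 5 and 0.320% of library 6. Library 1, with 2943 cells, stood apart from the others in this share. The libraries held from 4217169 to 49997616 UMIs in all, and their median UMIs per cell ran from 1630.0 to 3115. Libraries shared 974 barcode sequences, carried by 1962 cells, of which 5 were in cluster 8 and only 1 partner cell was in cluster 6, 7 or 8.

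The 8 genes lie apart in the genome, and Apela and Hsd11b2 share chromosome 8, Slc4a1 and Foxi1 chromosome 11. In GENCODE vM21 (build GRCm38) Aqp2 lies at chr15:99579055-99584547 (plus strand), Hsd11b2, the enzyme that inactivates glucocorticoids, at chr8:105518755-105523988 (plus), Fxyd4, a regulator of the sodium pump, at chr6:117933559-117937692 (minus) and Apela, a peptide ligand of the apelin receptor, at chr8:65028417-65037336 (minus). Of the intercalated set, Atp6v1g3, a V-ATPase subunit, lies at chr1:138273738-138289462 (plus), Slc4a1 at chr11:102348824-102366203 (minus), Slc26a4 at chr12:31519827-31559969 (minus) and Foxi1 at chr11:34204338-34208089 (minus). The 250 bases before the start were found for 6 of these 8 genes in the RefSeq promoter table (GRCm38.p6). A pair from each set is shown, since transcripts of these genes were detected together in cells of cluster 8. They are Aqp2 (chr15:99578806-99579055, plus strand), Apela (chr8:65037337-65037586, minus), Atp6v1g3 (chr1:138273488-138273737, plus) and Slc26a4 (chr12:31559985-31560234, minus), each written 5′ to 3′ on the gene's strand. Capitals mark the forkhead core TAAACA, searched on both strands (its reverse complement is TGTTTA).
Aqp2: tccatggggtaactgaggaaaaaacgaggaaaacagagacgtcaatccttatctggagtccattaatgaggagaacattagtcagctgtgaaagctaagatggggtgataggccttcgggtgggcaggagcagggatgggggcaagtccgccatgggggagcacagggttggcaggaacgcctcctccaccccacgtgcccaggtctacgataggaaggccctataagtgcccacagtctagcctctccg
Apela: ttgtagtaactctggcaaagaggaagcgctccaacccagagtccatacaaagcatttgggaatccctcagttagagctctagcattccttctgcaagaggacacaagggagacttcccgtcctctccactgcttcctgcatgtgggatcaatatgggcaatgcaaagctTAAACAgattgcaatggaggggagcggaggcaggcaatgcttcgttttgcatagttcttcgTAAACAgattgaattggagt
Atp6v1g3: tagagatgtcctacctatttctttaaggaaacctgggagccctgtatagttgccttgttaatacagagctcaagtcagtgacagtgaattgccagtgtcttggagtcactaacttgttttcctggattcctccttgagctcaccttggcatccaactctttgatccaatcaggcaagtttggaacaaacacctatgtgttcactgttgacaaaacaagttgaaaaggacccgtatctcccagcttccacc
Slc26a4: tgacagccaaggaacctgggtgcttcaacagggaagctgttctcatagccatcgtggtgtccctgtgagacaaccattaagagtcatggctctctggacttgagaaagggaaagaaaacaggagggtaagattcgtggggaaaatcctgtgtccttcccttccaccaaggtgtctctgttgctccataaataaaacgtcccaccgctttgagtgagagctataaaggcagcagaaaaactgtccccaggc
The core occurred at 2 places in the Apela window and at 0 places in the windows of Aqp2, Fxyd4, Atp6v1g3, Slc26a4 and Foxi1. Of all 32851 windows of this length, 12.0% held it. A match is a string of letters and shows no binding, and its absence covers these windows alone.

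Each of the 8 genes was found in a far larger share of cluster 8 cells than of the cell type it does not mark, and Foxi1 and Slc26a4 also in a larger share than of intercalated-like cells. Aqp2 had a UMI in 108 of 110 cluster 8 cells (98.2%, exact Clopper-Pearson 95% interval 93.6% to 99.8%) and in 96.2% of principal-like cells, but in 3.99% of intercalated-like cells. Hsd11b2 was found in 97.3% of cluster 8 cells (92.2% to 99.4%), Fxyd4 in 71.8% (62.4% to 80.0%) and Apela in 76.4% (67.3% to 83.9%). In intercalated-like cells these 3 genes were found in 5.96%, 3.01% and 1.39%. Atp6v1g3 had a UMI in all 110 cluster 8 cells (interval 96.7% to 100%), in 99.2% of intercalated-like cells and in 10.7% of principal-like cells. Foxi1 was found in 86.4% of cluster 8 cells (78.5% to 92.2%), Slc26a4 in 79.1% (70.3% to 86.3%) and Slc4a1 in 45.5% (35.9% to 55.2%). These intervals, and all others here, cover counting error only. The corresponding shares in cluster 7 were 71.1%, 51.3% and 37.7%, and those in cluster 6 were 1.61%, 1.26% and 0.690%. Since the cells were clustered by the authors from these counts, differences between clusters are given as descriptions, with no test.

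Free RNA in droplets puts UMIs of any abundant gene into other cells, so the 26482 proximal tubule cells of cluster 3 and the 1001 endothelial cells of cluster 1 served as background. Aqp2 had a UMI in 1.57% of the proximal and 2.60% of the endothelial cells, and Hsd11b2 in 1.45% and 2.50%. Atp6v1g3 was found in 9.28% and 11.1% of them, close to its 10.7% in principal-like cells, and Slc26a4 in 0.725% and 0.899%. Apela, at 9.79% of the cluster 1 cells and 0.944% of the proximal cells, was the gene with the largest difference between the 2 backgrounds. Of the 98 cluster 1 cells with Apela, 81 had at least 2 UMIs of it, against 14 of 111 for Atp6v1g3. Cluster 1 may thus be no background of free RNA for Apela, which was not tested. Median UMIs per cell were 5330.0 in cluster 8, 2894.5 in cluster 6, 3917 in cluster 7, 2281 in cluster 3 and 1658 in cluster 1, so cluster 8 was the deepest of the 5.

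When every cell was thinned to 1000 UMIs (no cluster 8 cell, 30 cluster 6, 38 cluster 7, 1607 cluster 3 and 117 cluster 1 cells were too shallow), the principal genes stood lower in cluster 8 than in principal-like cells. Aqp2 was found in 69.1% of cluster 8 cells (59.6% to 77.6%) against 85.2% of principal-like cells. Fxyd4 was found in 40.9% against 61.3%, Apela in 36.4% against 53.6% and Hsd11b2 in 90.0% against 93.2%. Of the intercalated genes, Atp6v1g3 was found in 96.4% of thinned cluster 8 cells against 97.9% of intercalated-like cells, Slc4a1 in 30.0% against 26.4%, and Foxi1 in 44.5% against 36.7%. Slc26a4, the type B exchanger, was found in 58.2% (48.4% to 67.5%) against 37.7%. At equal depth the shares of all 4 principal genes in cluster 8 lay below those of principal-like cells, with overlapping intervals for Hsd11b2. Of the intercalated genes, the shares of Slc26a4, Foxi1 and Slc4a1 lay above those of intercalated-like cells, and that of Atp6v1g3 lay below. Cells are no replicates here, so intervals that overlap or lie apart are no test between clusters. In thinned proximal cells, Aqp2 was found in 0.724% and Slc26a4 in 0.277%.

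**Figure D1:**
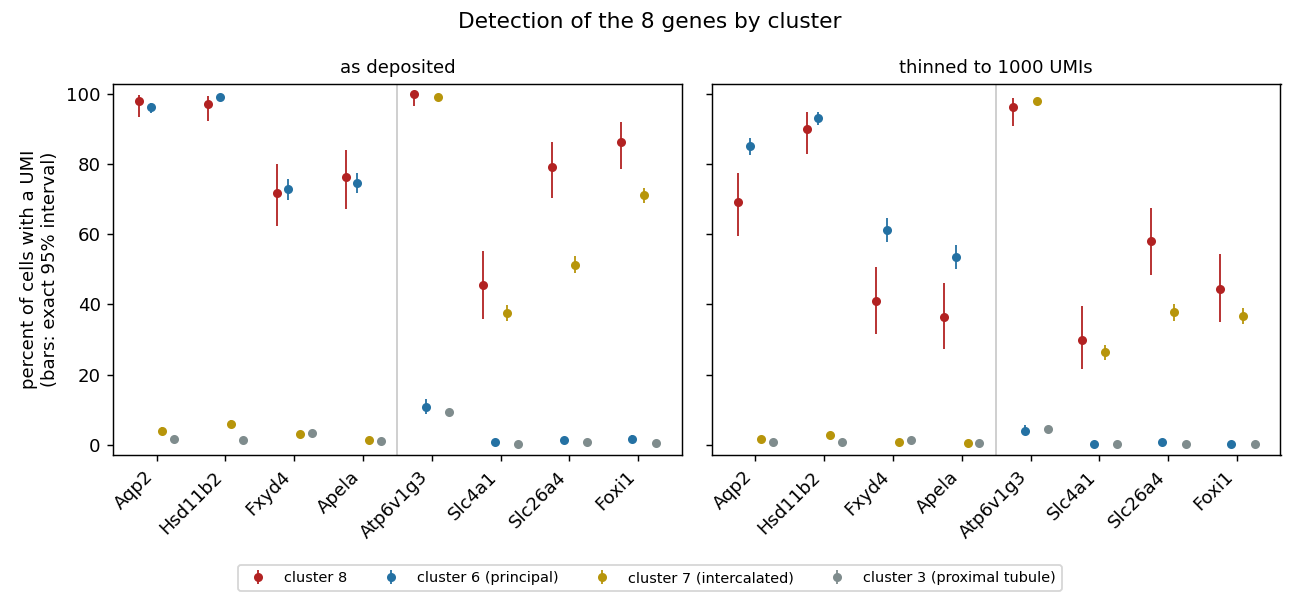
Percent of cells with at least 1 UMI of each of the 8 genes (principal genes left of the grey line, intercalated genes right of it), as deposited and after thinning every cell to 1000 UMIs. Points are shares of all cells of a cluster and bars are exact 95% intervals; cluster 8 stands above the proximal tubule level for all 8 genes (45.5% to 100% as deposited), whereas clusters 6 and 7 do so clearly for 1 set each.

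Both sets were present together in every cell of cluster 8. At least 2 principal and 2 intercalated genes were detected in 110 of 110 cells (100%, interval 96.7% to 100%), against 6 of 870 principal-like cells (0.690%, 0.253% to 1.50%) and 30 of 1729 intercalated-like cells (1.74%, 1.17% to 2.47%). At least 3 of each set were detected in 81 cluster 8 cells (73.6%, 64.4% to 81.6%), in 2 cells of cluster 6 and in 3 of cluster 7. All 8 genes were detected in 13 cluster 8 cells (11.8%, 6.45% to 19.4%) and in 0 cells of clusters 6 and 7, which allows shares of up to 0.345% and 0.174% there. The most frequent combination in cluster 8 was all 4 principal with 3 intercalated genes, in 42 cells, followed by 3 with 3 in 19 cells. Of the proximal cells 0 held 2 of each set, which allows a share of up to 0.0113%, and of the endothelial cells 0, which allows up to 0.300%. Relaxed to 1 gene of each set, the count reached 116 principal-like cells (13.3%), 205 intercalated-like cells (11.9%) and 205 proximal cells (0.774%), so a single gene of the other set was common outside cluster 8 and a pair of them was not.

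**Figure D2:**
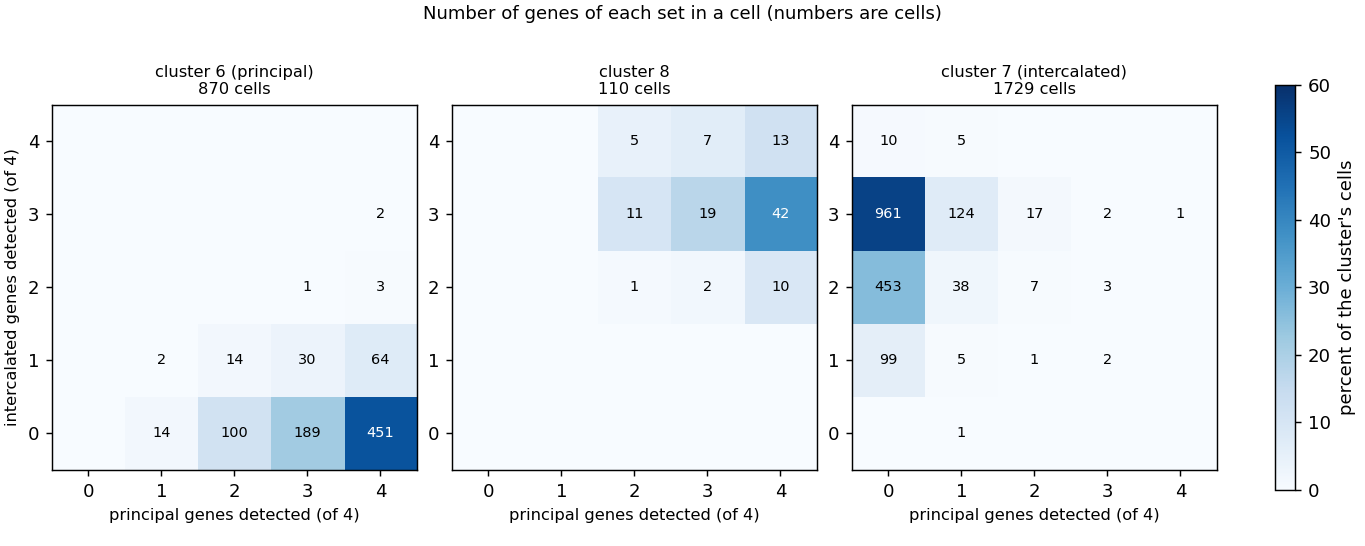
Cells by the number of principal genes (horizontal axis, of 4) and intercalated genes (vertical axis, of 4) with at least 1 UMI; the number in a square counts cells and the shade is its percent of the cluster. Cluster 8 fills the upper right corner from 2 of each set, with 42 cells at 4 principal and 3 intercalated genes, while clusters 6 and 7 lie along the lower and the left edge.

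With thinning or a stricter detection rule the shares were lower in all 3 clusters. Thinned to 1000 UMIs, 69 of 110 cluster 8 cells (62.7%, 53.0% to 71.8%) still held 2 of each set, against 2 of 840 principal-like cells (0.238%) and 8 of 1691 intercalated-like cells (0.473%). Thinned to 2000 UMIs, 93 of 107 cluster 8 cells (86.9%) did. When a gene counted as detected from 2 UMIs on, 97 of 110 cluster 8 cells (88.2%) held 2 of each set, against 4 principal-like and 9 intercalated-like cells. Of the 33 cluster 8 cells with no more UMIs than the median intercalated-like cell, all 33 held 2 of each set, and 22 held 3. Of the 55 cluster 8 cells with up to 5302 UMIs, 39 held 3 of each set, and of the 55 deeper cells 42 did.

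Over all 16 clusters, 150 cells held at least 2 genes of each set, and cluster 8 contained 110 of them (73.3%). The other 40 were 30 intercalated-like cells, 6 principal-like cells, 3 cells of cluster 5 and 1 cell of cluster 14. Those 30 intercalated-like cells had a median of 4 principal UMIs (2 to 22) beside 39 intercalated UMIs, and a median of 5396 UMIs in all. The 6 principal-like cells had a median of 30.5 principal and 6 intercalated UMIs. Cluster 8 cells had a median of 22.5 principal UMIs (2 to 238) and 35 intercalated UMIs (3 to 114), so both sets were present as many molecules in the typical cell.

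**Figure D3:**
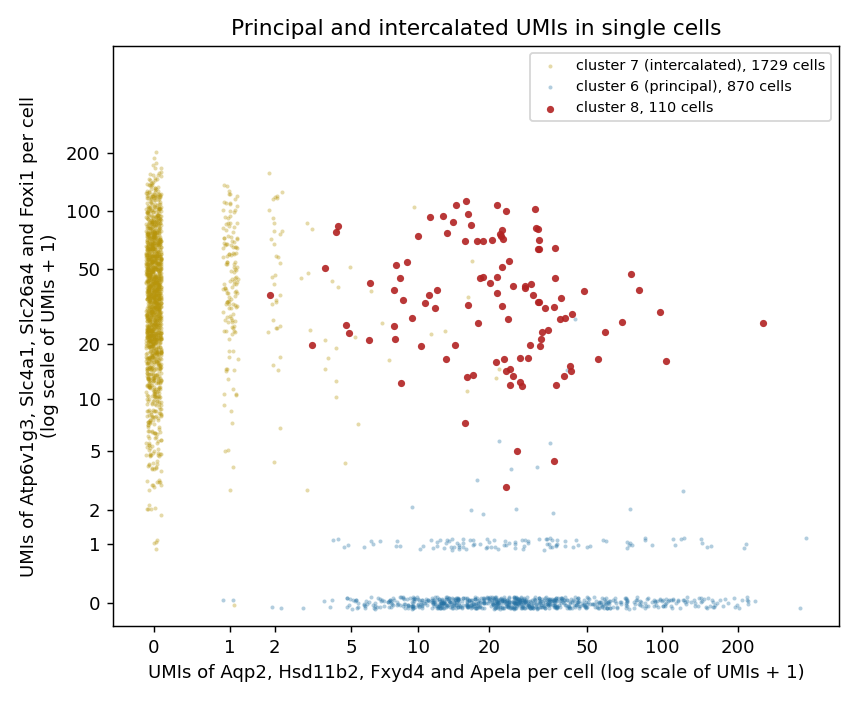
UMIs of the 4 principal genes (horizontal axis) and of the 4 intercalated genes (vertical axis) in each cell of clusters 6, 7 and 8, on log scales of UMIs + 1 with a small random shift to part equal values. Cluster 8 cells (2 to 238 principal and 3 to 114 intercalated UMIs) fill the space between the cluster 7 cells at the left edge and the cluster 6 cells at the bottom.

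By library, 3 of each set were found in 28 of 29 cluster 8 cells of library 1, 13 of 19 of library 2, 4 of 4 of library 3, 4 of 4 of library 4, 11 of 15 of library 5 and 21 of 39 of library 6. Library 6 was the lowest and library 1 the highest of the 4 libraries with at least 5 cells. Median UMIs of these cells were 4999, 5890.0, 4434, 7598.5, 4943 and 5302 in libraries 1 to 6. The part of depth in these counts was not tested.

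The 16 pairs of a principal with an intercalated gene spanned 38.2% (Apela with Slc4a1, 42 cells) to 98.2% (Aqp2 with Atp6v1g3, 108 cells) of cluster 8 cells. Aqp2 with Atp6v1g3 was found in 10.2% of principal-like, 3.93% of intercalated-like and 0.211% of proximal cells. Aqp2 with Slc26a4, the water channel with the type B exchanger, was found in 85 cluster 8 cells (77.3%, 68.3% to 84.7%), against 11 principal-like cells (1.26%), 38 intercalated-like cells (2.20%) and 0.0227% of proximal cells. Thinned to 1000 UMIs this pair was found in 38 cluster 8 cells (34.5%), 7 principal-like and 9 intercalated-like cells. Aqp2 with Foxi1 was found in 93 cluster 8 cells (84.5%), 14 principal-like and 46 intercalated-like cells. Hsd11b2 with Slc26a4 was found in 84, 11 and 61 cells in that order. Each of the 16 pairs was thus found in a far larger share of cluster 8 than of either other cluster, where the highest share was 10.7%, for Hsd11b2 with Atp6v1g3 in principal-like cells.

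The balance between the sets varied widely from cell to cell. Of the UMIs of the 8 genes in a cluster 8 cell, the principal set made up a median of 36.2% (quartiles 21.7% and 59.7%, range 4.30% to 90.5%). In 25 cells the principal share was below 20%, in 33 cells it lay from 20% to 40%, in 25 from 40% to 60%, in 22 from 60% to 80%, and in 5 it was 80% or more, so no gap separated a principal-rich from an intercalated-rich group in these bins. The median was 47.1% in library 1, 33.3% in library 2, 55.9% in library 3, 40.0% in library 4, 27.0% in library 5 and 29.5% in library 6, and the ranges of all 6 libraries overlapped. The lowest principal share of any principal-like cell was 64.4%, and 75% or more of the principal-like cells were at 100%. The share weighs Atp6v1g3 heavily, since that gene gave 3312 of the cluster's intercalated UMIs, against 229 to 689 for each of the other 3. Left out together with Hsd11b2 (1170 UMIs, the most of the principal genes), the median became 53.6%.

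**Figure D4:**
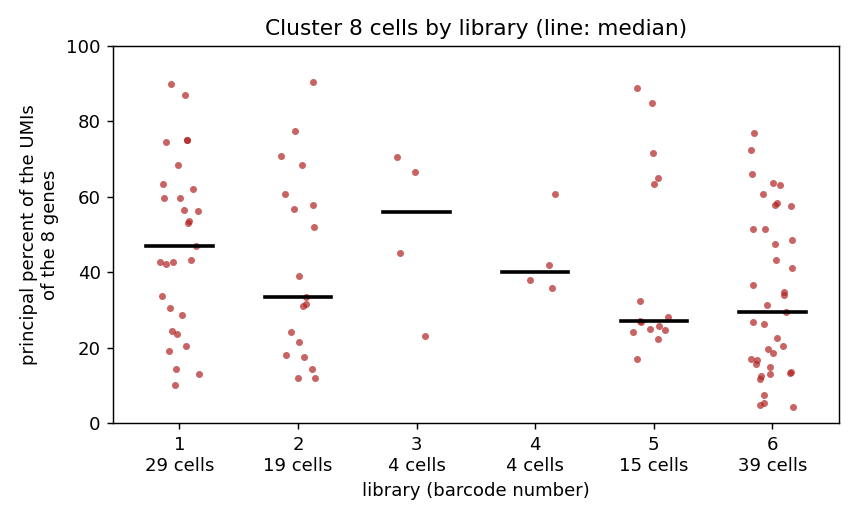
Principal percent of the UMIs of the 8 genes in each cluster 8 cell (points), by library, with the median of the library as a line. Cells spread from 4.30% to 90.5%, and the ranges of the libraries overlap, the narrowest being that of the 4 cells of library 4 (35.8% to 60.7%).

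Most cluster 8 cells carried each set below the level of a typical cell of its own type. Per 10000 UMIs, 73 of 110 cells reached the 5th percentile of principal-like cells for the principal set (28.9), 100 reached that of intercalated-like cells for the intercalated set (34.2), and 63 reached both. The 25th percentiles (57.7 and 72.6) were reached by 42 and 53 cells, and both by 8. The medians (93.5 and 103) were reached by 17 and 21 cells, and no cell of 110 reached both, which allows a share of up to 2.73%. Across the 110 cells the principal and the intercalated UMIs per 10000 had a Spearman rho of -0.56, and -0.38 in UMIs after thinning. The 2 levels share each cell's total UMIs, and the cells share libraries. Total UMIs and the principal share had a rho of -0.36 over the same 110 cells, with a median share of 52.0% in cells up to 5302 UMIs and 28.1% in deeper cells. The part of depth in the balance was not tested.

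Cells with both exchangers of the opposing acid-base types were frequent in cluster 8. Slc4a1 and Slc26a4 were detected together in 28 of 110 cells (25.5%, 17.6% to 34.6%), against 20 of 1729 intercalated-like cells (1.16%, 0.708% to 1.78%) and 0 of 870 principal-like cells, which allows up to 0.345%. In cluster 8, 22 further cells had Slc4a1 alone, 59 had Slc26a4 alone and 1 had neither, whereas of the intercalated-like cells 631 had Slc4a1 alone, 867 Slc26a4 alone and 211 neither. By library the cluster 8 cells with both exchangers numbered 7, 6, 2, 0, 4 and 9 in libraries 1 to 6. In 17 of the 28 cells both genes had at least 2 UMIs, as in 12 of the 20 intercalated-like cells. Thinned to 1000 UMIs, both were found in 12 cluster 8 cells (10.9%), 5 intercalated-like and 0 principal-like cells. Aqp2 together with both exchangers was detected in 27 cluster 8 cells (24.5%, 16.8% to 33.7%), in 0 of the 1729 intercalated-like cells, which allows up to 0.174%, and in 0 principal-like cells. In the thinned cells that triple was found in 8 cluster 8 cells and 0 cells of the other 2 clusters.

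Other type A and type B genes differed in how sharply they split with the exchangers within cluster 8. Among the 22 cells with Slc4a1 alone, the type A channel gene Aqp6 was detected in 95.5%, the adhesion receptor gene Adgrf5 in 86.4% and the transcription factor gene Dmrt2 in 54.5%, and the type B transcription factor gene Hmx2 in 4.55%. The type B list genes Spink8 (59.1%) and Slc4a9 (31.8%) were detected in many of these cells too, as in the intercalated-like cells with Slc4a1 alone (53.9% and 30.1%). Among the 59 cells with Slc26a4 alone, Aqp6 was detected in 13.6%, Adgrf5 in 13.6% and Dmrt2 in 1.69%, but Hmx2 in 78.0%, the receptor kinase gene Insrr in 88.1% and the exchanger Slc4a9 in 71.2%. The type A list gene Kit was detected in 32.2% of them, against 59.1% of the cells with Slc4a1 alone and 9.34% of the intercalated-like cells with Slc26a4 alone. The 28 cells with both exchangers carried genes of both groups, with Aqp6 in 85.7%, Adgrf5 in 82.1%, Hmx2 in 67.9% and Insrr in 78.6%. Kit was detected in 67.9% of them and Spink8 in 89.3%. Slc4a9 (42.9%), Dmrt2 (39.3%) and the type A list gene Slc26a7 (21.4%) were detected in fewer. Aqp2 was detected in 100%, 98.3% and 96.4% of these 3 groups. Their median principal share was 68.4% with Slc4a1 alone, 26.8% with Slc26a4 alone and 32.5% with both, at median depths of 4267.5, 5699 and 5296 UMIs. These groups were made from the data and share libraries, and no test was made between them. In intercalated-like cells the like split gave Aqp6 in 92.2% of the cells with Slc4a1 alone and 10.8% of those with Slc26a4 alone, and the 20 cells with both had Aqp6 in 75.0% and Hmx2 in 70.0%, at a median of 6458.5 UMIs.

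Genes outside the 8 were also detected together in cells of cluster 8. Of 14 further principal genes, a cluster 8 cell held a median of 7 (quartiles 6 and 9, range 2 to 13), as did a principal-like cell (median 7), against 2 in an intercalated-like cell. Of 7 further intercalated genes that types A and B share, the median was 5 in cluster 8, 5 in cluster 7 and 1 in cluster 6. At least 2 of each list were detected in 109 of 110 cluster 8 cells (99.1%), and also in 38.4% of principal-like and 49.5% of intercalated-like cells, so these lists part the clusters less sharply than the 8 genes. In proximal cells the share was 0.495%. After thinning to 1000 UMIs it was 50.9% in cluster 8, 10.0% in cluster 6 and 7.87% in cluster 7. At that depth the median of the principal list was 2 genes in cluster 8, 4 in cluster 6 and 0 in cluster 7. For the intercalated list the medians were 2, 0 and 3, so the equal medians held only at the depth as deposited.

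Levels were compared in library sums of at least 5 cells, which exist for libraries 1, 2, 5 and 6 in cluster 8, for 6 libraries in cluster 6 and for all 7 in cluster 7, with each sum scaled to a total of 1000000 UMIs (CPM). Folds are log2 ratios of mean CPM + 10. In such sums, fewer cells that hold a gene and less RNA of it per cell cannot be told apart. Aqp2 stood at 2238, 1339, 1204 and 1754 CPM in cluster 8 libraries 1, 2, 5 and 6, at 2772 to 8070 CPM (median 7160) in principal-like sums and at 3.11 to 40.6 CPM (median 8.96) in intercalated-like sums. Cluster 8 lay between the other clusters without overlap, a log2 ratio of -1.90 to principal-like and 6.19 to intercalated-like sums. Hsd11b2 stood at 2604, 2004, 1517 and 1913 CPM, against 2738 to 4592 (median 3913) and 1.56 to 72.7 (median 22.4). Its cluster 8 values also lay between the others without overlap.

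Fxyd4 stood at 1795, 523, 771 and 482 CPM in cluster 8, against 1021 to 5884 (median 4961) in cluster 6 and 0 to 21.8 (median 6.41) in cluster 7. Library 1 was the high one, above the lowest principal-like sum, that of library 6. Apela stood at 725, 319, 409 and 374 CPM, against 743 to 1570 (median 1346) and 0 to 6.68 (median 3.20). Library 1 was again high, at just under the lowest principal-like sum. Within libraries, each of the 4 principal genes was lower in cluster 8 than in cluster 6 in 4 of 4 shared libraries.

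Of the intercalated set, Atp6v1g3 stood at 5539, 6332, 4709 and 6227 CPM in cluster 8, against 20.6 to 138 (median 53.6) in cluster 6 and 8152 to 9541 (median 8525) in cluster 7. Cluster 8 lay below every intercalated-like sum, at a log2 ratio of -0.61. Slc26a4 stood at 1070, 798, 1072 and 1575 CPM, against 0 to 15.8 (median 1.70) and 637 to 969 (median 862). Of its 4 cluster 8 values, 3 were above every intercalated-like sum and library 2 was within their range. Slc4a1 stood at 352, 568, 169 and 482 CPM, against 0 to 9.08 (median 2.41) and 306 to 684 (median 590). Library 5 was the low one, and the 2 clusters overlapped, with cluster 8 the lower in 3 of 4 shared libraries. Foxi1 stood at 683, 443, 325 and 708 CPM, against 0 to 9.05 (median 5.50) and 378 to 686 (median 496), with overlap as well. Relative to its own cell type, each principal gene thus had a lower ratio (log2 of -0.91 to -2.17) than each intercalated gene (-0.61 to 0.43).

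**Figure D5:**
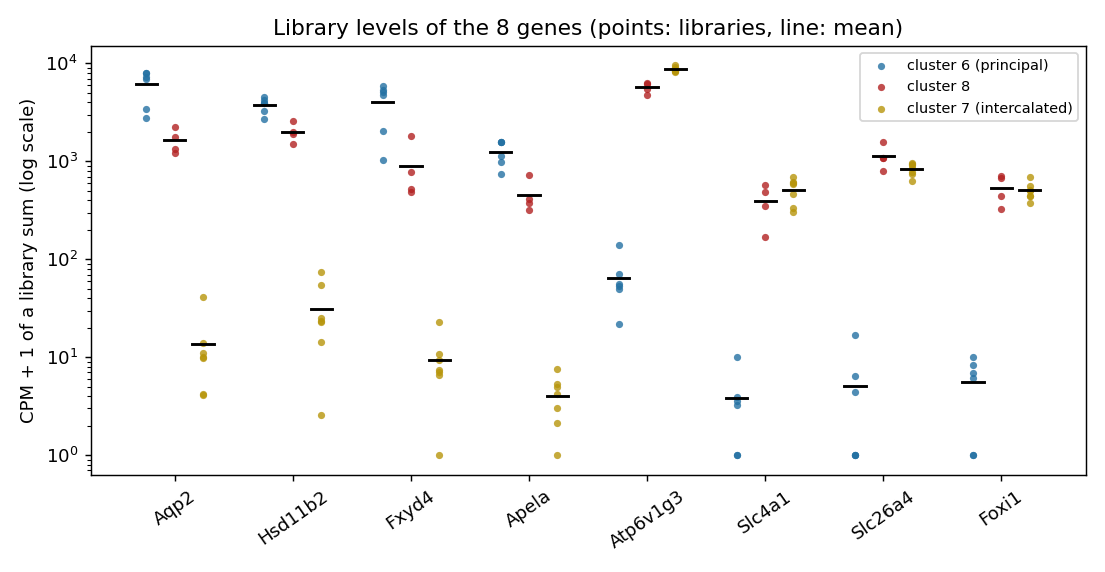
CPM + 1 (log scale) of the 8 genes in library sums of clusters 6, 8 and 7 (points are libraries, lines are means; 6, 4 and 7 sums). Cluster 8 is near cluster 7 for Slc4a1, Slc26a4 and Foxi1 and below it for Atp6v1g3 (4709 to 6332 against 8152 to 9541 CPM), and for the principal genes it lies between the other clusters, nearer to cluster 6.

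Over 8161 genes with a mean of at least 10 CPM, cluster 8 was at least 2-fold higher than principal-like sums for 348 genes (4.26%) and lower for 250 (3.06%). Against intercalated-like sums it was at least 2-fold higher for 327 genes (4.01%) and lower for 56 (0.686%). The median log2 ratio of all genes was 0.05 and 0.19. Outside the 8 genes, the largest folds over principal-like sums belonged to Aqp6 (505 ± 96.4 CPM in cluster 8, mean ± SD, n = 4, against 2.39 ± 2.81, n = 6), Insrr, Hepacam2, Car12 (a membrane carbonic anhydrase, 1583 ± 426 against 32.0 ± 16.5), Atp6v0d2 and Atp6v1c2 (both V-ATPase subunits). Over intercalated-like sums they belonged to Npnt (the matrix protein nephronectin, 472 ± 166 CPM against 11.4 ± 9.94, n = 7), Kcne1 (a potassium channel subunit, 201 ± 32.7 against 3.64 ± 3.32), Scnn1g (the gamma subunit of the sodium channel), Cav1, Ntn4 and Tmem45b.

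Genes that part the 2 cell types by at least 4-fold were compared with cluster 8. The gap was taken from these same sums and is wide, so a place within it is no test. Of 147 other genes at least 4-fold higher in principal-like than in intercalated-like sums, cluster 8 lay between for 145 and above both for 2, at a median of 43.4% of the principal-like level (quartiles 31.1% and 57.1%). Of 106 genes at least 4-fold higher in intercalated-like sums, cluster 8 lay between for 73 and above both for 33, at a median of 83.4% of the intercalated-like level (62.7% to 108%). Over all 8161 genes, cluster 8 lay between the other clusters for 35.2%, but these were not chosen by a gap and are no like background.

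Genes at least 2-fold above both other clusters were few. There were 7 (0.0858%) with at least 20 UMIs in cluster 8, namely Nr4a1, Agpat4, Hmox1, Snap47, Tgfbr3, Rnf208 and Atxn7l3, each with 23 to 37 UMIs in all. Hmox1, the haem-degrading oxygenase, averaged 43.9 ± 39.7 CPM in cluster 8, against 8.68 ± 5.14 and 13.9 ± 7.67. With all clusters taken from libraries 1, 2, 5 and 6 alone, a choice made after seeing the data, Hmox1 was the 1 gene of the 7 still at least 2-fold above both. Without library 3 the count was 4, and without library 1 it was 37, so single libraries decide it. Cluster 8 was at least 2-fold below both for 25 genes (0.306%), among them the tissue kallikrein Klk1, a connecting tubule gene, at 519 ± 342 CPM (n = 4) against 3922 ± 4626 and 1562 ± 769. The lowest ratio to intercalated-like sums was that of Xist, with 0 UMIs in cluster 8. Of the intercalated-like sums, library 7, which holds no cluster 8 cell, had Xist at 1210 CPM, libraries 4 and 5 at 1.12 and 0.352 CPM, and the others at 0. The predicted genes Gm10260, Gm10709 and Gm8797, and Eif3j2, have near-identical copies elsewhere, between which reads can be split. They too varied mainly between libraries. In clusters 6 and 7 they were highest in libraries 3 and 4, for which cluster 8 has no sum. Gm10260 stood at 774 and 739 CPM in those libraries of cluster 6. In library 6 it stood at 149 CPM in cluster 6 and at 123 CPM in cluster 8. The low ratios of these genes are thus uncertain, and the part of copies and of unequal libraries was not tested. Gdpd3 and the distal tubule gene Pvalb (10.8 ± 10.6 CPM against 82.3 ± 109) were low against principal-like sums with wide library spread, as was the non-coding RNA Snhg18 (134 ± 66.7 against 644 ± 364).

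Summed, the proton pump genes stood above every principal-like sum and below every intercalated-like sum. Of 21 V-ATPase genes 20 passed the level filter. Of these, 12 were at least 2-fold higher in cluster 8 than in principal-like sums and 0 were lower, while 0 differed by 2-fold from intercalated-like sums. Over all 8161 genes, 4.26% were higher and 3.06% lower than in principal-like sums. Against intercalated-like sums the shares were 4.01% and 0.686%, so 0 of 20 genes is close to these shares. The median log2 ratio of the 20 V-ATPase genes was 1.57 and -0.10. Atp6v1a, the catalytic subunit, stood at 2133 ± 240 CPM (n = 4), against 591 ± 54.7 in cluster 6 (n = 6) and 1793 ± 274 in cluster 7 (n = 7). Atp6v1e1 stood at 1196 ± 98.0 against 328 ± 87.3 and 1307 ± 216, and Atp6v0b at 886 ± 94.1 against 273 ± 26.1 and 1126 ± 143. The housekeeping subunit genes Atp6v1f (1303 ± 249 against 1397 ± 508 and 1668 ± 195) and Atp6v0e (1151 ± 203 against 805 ± 115 and 1327 ± 219) overlapped with both. The summed level of the list was 14500 to 18086 CPM in cluster 8, 4152 to 5695 in cluster 6 and 18650 to 21357 in cluster 7.

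Of 12 acid and base transport genes 11 passed the filter. Of these, 5 were at least 2-fold higher than in cluster 6 and 2 than in cluster 7 (4.26% and 4.01% of all 8161 genes). By 2-fold, 0 were lower than either (3.06% and 0.686% of all genes). The ammonia channel Rhcg stood at 732 ± 148 CPM against 701 ± 260 in cluster 6 and 348 ± 61.7 in cluster 7, and Rhbg at 714 ± 323 against 392 ± 209 and 597 ± 175. The cytosolic carbonic anhydrase Car2 stood at 1307 ± 118 against 697 ± 328 and 1999 ± 463, below each intercalated-like sum. All 6 type A and all 5 type B genes of the lists were at least 2-fold higher in cluster 8 than in principal-like sums. From intercalated-like sums, 0 of the 11 differed by 2-fold, close to the shares over all genes (4.01% higher and 0.686% lower). In the type B list, Hmx2 stood at 419 ± 111 CPM against 569 ± 119 in intercalated-like sums, Insrr at 438 against 292, Slc4a9 at 229 ± 109 against 212 ± 71.2 and Spink8 at 1062 ± 377 against 959 ± 289. In the type A list, Kit stood at 132 ± 29.4 against 193 ± 59.9 and Adgrf5 at 235 ± 63.5 against 434 ± 118. The type A list summed to 951 to 1561 CPM in cluster 8 and 1189 to 2409 in intercalated-like sums, and the type B list to 2914 to 3688 and 2317 to 3552.

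Water and sodium transport genes lay between the 2 types. Of 16 genes 11 were at least 2-fold higher and 1 was lower in cluster 8 than in intercalated-like sums, and 7 were lower and 1 was higher than in principal-like sums. Over all 8161 genes, the shares were 4.01%, 0.686%, 3.06% and 4.26% in the same order. The basolateral water channel Aqp3 stood at 637 ± 101 CPM in cluster 8 against 1393 ± 471 in cluster 6 and 177 ± 37.3 in cluster 7, the vasopressin receptor Avpr2 at 59.3 ± 21.0 against 251 ± 105 and 1.50 ± 0.816, and the potassium channel Kcnj1 at 201 ± 38.8 against 676 ± 173 and 26.1 ± 22.0. The sodium channel subunits differed: Scnn1a stood at 473 ± 67.6 against 461 ± 68.4 and 242 ± 48.8, whereas Scnn1b stood at 279 ± 89.0 against 530 ± 75.2 and 60.8 ± 15.6. Fxyd2, the sodium pump gamma subunit, was the gene lower than in intercalated-like sums (2992 ± 379 against 6431 ± 1155) and stood above principal-like sums (1312 ± 628). Of the 14 further principal genes, 0 were higher and 6 lower by 2-fold than in principal-like sums, and 11 were higher than in intercalated-like sums. Distal and connecting tubule genes were also detected in principal-like cells. Their 7 markers, all detected in cluster 8, summed to 6253 to 21185 CPM there (mean 11719). The sums were 5231 to 58488 in cluster 6 (mean 28536) and 575 to 7549 in cluster 7 (mean 4050). The summed mean thus lay between the others, but those of Klk1 (519 against 3922 and 1562) and Pvalb (10.8 against 82.3 and 20.8) lay below both. The part of these markers was not tested.

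Of 14 collecting duct transcription factor genes, 3 were at least 2-fold higher in cluster 8 than in principal-like sums and 1 was lower (Elf5), and 3 were higher than in intercalated-like sums. Over all 8161 genes, the shares were 4.26%, 3.06% and 4.01% in the same order. Tfcp2l1, a factor of the whole collecting duct, stood at 948 ± 154 CPM against 816 ± 221 in cluster 6 and 912 ± 133 in cluster 7. Gata2 stood at 143 ± 36.6 against 242 ± 61.0 and 41.9 ± 12.5, Gata3 at 149 ± 58.7 against 226 ± 46.0 and 70.0 ± 13.1, and Hoxd8 at 289 ± 49.9 against 356 ± 72.9 and 160.3 ± 32.4. Foxi1, Hmx2 and Dmrt2 were the 3 higher than in principal-like sums.

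Of the Notch pathway, the ligand gene Jag1 and the target gene Hes1 were both detected in cluster 8 cells, as they were together in 18.2% of intercalated-like cells. Jag1, a Notch ligand, had a UMI in 49 of 110 cluster 8 cells (44.5%, 35.1% to 54.3%), against 4.37% of principal-like and 31.7% of intercalated-like cells. Hes1, a transcriptional target of Notch, was found in 84 cells (76.4%, 67.3% to 83.9%), against 63.8% and 46.2%. Both were found in 36 cells (32.7%), against 25 principal-like cells (2.87%) and 315 intercalated-like cells (18.2%). Depth bears on these shares: thinned to 1000 UMIs, Jag1 was found in 10.9% of cluster 8 cells (5.77% to 18.3%), against 1.79% and 10.7%, and Hes1 in 33.6% (24.9% to 43.3%), against 38.7% and 17.6%. At that depth both genes together were found in 2 of 110 cluster 8 cells, 4 of 840 cluster 6 cells and 26 of 1691 cluster 7 cells, too few to part cluster 8 from cluster 7. At 2000 UMIs they were found together in 15 of 107 cluster 8 cells (14.0%, 8.06% to 22.1%), against 1.43% and 6.40% (5.16% to 7.83%). In proximal cells as deposited, Jag1 was found in 0.396% and Hes1 in 5.21%, and in the endothelial cells of cluster 1 in 7.69% and 38.4%. The receptor gene Notch2 was found in 10 cells (9.09%), against 11.4% and 0.752%, and together with Jag1 in 5 cells. Per library sum, Jag1 stood at 150.4 ± 27.8 CPM (n = 4), against 18.5 ± 10.3 (n = 6) and 124 ± 30.5 (n = 7). Hes1 stood at 407 ± 116 against 666 ± 149 and 187 ± 73.6, Notch2 at 17.5 ± 7.71 against 49.2 ± 14.9 and 2.08 ± 0.911, and Nrarp, a target and feedback inhibitor, at 28.8 ± 13.1 against 44.1 ± 16.1 and 1.47 ± 1.58.

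The other members were sparse. The ligand genes Dll1 and Dll4 were found in 19 and 9 cluster 8 cells, the receptor genes Notch1 and Notch3 in 10 and 6, the target Heyl in 3, the ubiquitin ligase gene Mib1 in 25 and the nuclear effector Rbpj in 17. Hey1 and Jag2 were found in 0 of 110 cells, which allows shares of up to 2.73%, and in 0 cells of clusters 6 and 7. Of the receptors and targets, 4 of 7 passed the level filter. Of these, 3 were at least 2-fold higher than in intercalated-like sums (4.01% of all 8161 genes) and 1 lower than in principal-like sums (3.06%). Of the ligand and signalling genes 5 of 6 passed, and 3 (Jag1, Dll1 and Dll4) were at least 2-fold higher than in principal-like sums (4.26% of all genes). From intercalated-like sums, 0 differed by 2-fold, close to the shares over all genes (4.01% higher and 0.686% lower).

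Immediate early and heat shock genes, which respond to tissue dissociation, stood near the principal-like level. Of 15 genes 14 passed the filter, with 0 higher and 1 lower by 2-fold than in cluster 6 and 6 higher than in cluster 7. Over all 8161 genes, the shares were 4.26%, 3.06% and 4.01% in the same order. Fos stood at 133 ± 99.4 CPM in cluster 8 against 164 ± 154 and 26.9 ± 20.7, Egr1 at 124 ± 59.4 against 148 ± 106 and 27.0 ± 22.7, and Hspa8 at 592 ± 111 against 457 ± 92.5 and 550.0 ± 65.1. Several markers of other cells were at 0 in cluster 8. The podocyte gene Nphs1, the immune genes Cd3g, C1qa and Cd79a, the loop of Henle gene Cldn16, the cycling genes Mki67 and Birc5 and the 4 haemoglobin genes of the lists had no UMI in its library sums. The 6 proximal tubule markers, all detected, summed to 97.5 to 408 CPM in cluster 8, against 218 to 859 in cluster 6 and 208 to 982 in cluster 7, ranges that overlapped. Of the 4 loop of Henle markers 3 were detected, and the list summed to 134 to 795 CPM (mean 318), against 162 to 798 in cluster 6 (mean 476) and 90.2 to 296 in cluster 7 (mean 162). The 4 endothelial markers, all detected, summed to 0 to 36.1 CPM, against 0 to 5.89 in cluster 6 and 0 to 8.09 in cluster 7. The 6 immune markers summed to 8.87 to 14.1 CPM, against 0 to 26.5 and 6.41 to 20.2. Of the 4 cycling markers 2 were detected, and the list summed to 0 to 12.0 CPM, against 0 to 103 and 0 to 12.7. The part of these cells in the results was not tested.

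Cluster 8 cells had higher median UMIs and genes per cell than principal-like cells in libraries 1, 2, 5 and 6. In library 3, with 4 cluster 8 cells, the median number of genes was lower (1734.5 against 1845). Over libraries 1, 2, 5 and 6, the median log2 UMIs per cell differed by 0.89 ± 0.28 (cluster 8 minus principal-like, mean ± SD, n = 4, higher in 4 of 4; exact two-sided sign-flip permutation p = 0.125, adjusted p = 0.25). This exact p is the smallest that 4 libraries allow, so the design could not reach 0.05. Against intercalated-like cells the difference was 0.34 ± 0.38 (n = 4, higher in 3 of 4; exact p = 0.25, adjusted p = 0.375), and in library 5 intercalated-like cells were the deeper ones (5452 against 4943 UMIs). The log2 number of genes per cell differed by 0.78 ± 0.21 from principal-like and by 0.41 ± 0.23 from intercalated-like cells, each higher in 4 of 4 libraries (exact p = 0.125 and adjusted p = 0.25 for both). The mitochondrial percent of UMIs differed by 0.02 ± 6.65 points from principal-like (exact p = 1, higher in 3 of 4) and by -1.99 ± 4.96 points from intercalated-like cells (exact p = 0.5, adjusted p = 0.6, higher in 1 of 4). Adjusted values are Benjamini-Hochberg over these 6 tests, and none passed 0.05. No doublets were called here, so 2 cells in a droplet were not told apart from single cells with both sets, and their part in the counts above was not tested.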

How the data were processed

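Per the labels, single cells of 7 mouse kidneys were profiled with the 10x Chromium 3′ method. Per the submitters' processing notes, Cell Ranger 1.3 and STAR were used with mm10 (GRCm38.p4). The authors deposited a matrix of counts, each the number of UMIs of a gene in a cell, with a cluster number per cell (values checked to be whole and not negative). How cells were filtered, how clusters were made and whether doublets were removed are not given in the sources used here. The most genes in a cell were 2989, 2973, 2985, 2978 and 2976 in clusters 8, 6, 7, 3 and 1. Cells with more genes are absent from these clusters, which bounds the comparisons of depth, and the effect of this was not tested. No doublet caller was run here. The number of per-sample value columns not used is 0.

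The cells, genes and lists were chosen with earlier results of these data known. A gene counted as detected at 1 UMI or more. Shares carry exact 95% Clopper-Pearson intervals, and a count of 0 is given a limit of 3 counts. Thinning drew 1000 UMIs per cell without replacement (seed 1), with 2000 as an alternative. Counts were summed over libraries with at least 5 cells of a cluster and scaled to CPM. Genes with a mean of at least 10 CPM over the clusters were kept, and folds of 2 on mean CPM + 10 were counted, with no test, since the clusters rest on the same counts. UMIs, genes and mitochondrial share per cell were compared by exact sign-flip permutation of library differences. The scripts were tested on simulated data.

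Genes named are the 8 genes, all Notch members, up to 6 members per list with the highest level in cluster 8, up to 8 genes above both clusters with at least 20 UMIs, and up to 6 genes per direction with the largest fold against each cluster. Exceptions named after their values were seen are Avpr2, Kcnj1, Elf5 and Dmrt2. Alternatives were stricter detection, thinning, another number of genes of each set, shallow cells alone, a pseudocount of 1 CPM, pooled sums, shared libraries alone, and each library left out. Python 3.11.15, numpy 2.4.6, scipy 1.17.1 and matplotlib 3.10.9 were used. The name of 1 mouse strain is not reported here.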

Additional observations from a re-analysis of the deposited data

Results flagged for a closer look

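Of 55 groups of 4 or 7 libraries examined, 4 had a single library far from the rest. A chance rate of about 1 in 20 holds for unselected values. Many of these groups are genes named for their folds in the same sums, so the count cannot be set against that rate. Cluster 8 made up 0.985% of the cells of library 1, against 0% to 0.375% in the other 6 libraries. In the cluster 8 sums, library 6 stood apart for 3 genes: Gm10260 at 123 CPM (0 to 7.04 in the other 3 libraries), Gm10709 at 133 CPM (0 in the others) and Eif3j2 at 5.13 CPM (0 in the others). The Eif3j2 value is 1 UMI, and with the others at 0 any count stands apart by construction, so it carries no information. The Gm10709 value is 26 UMIs.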

How the results depend on the processing

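The share of cluster 8 cells with 2 genes of each set (100%) was 88.2% at 2 UMIs per gene, 62.7% and 86.9% thinned to 1000 and 2000 UMIs and 73.6% for 3 genes of each set; it was 100% without any 1 library. In cluster 6 (0.690%) it was 0.238% thinned to 1000 UMIs, 13.3% for 1 and 0.230% for 3 genes (0.633% to 0.741% without 1 library). In cluster 7 (1.74%) it was 0.521% at 2 UMIs, 0.473% and 0.945% thinned, 0.925% in cells up to that cluster's median UMIs, 11.9% for 1 and 0.174% for 3 genes (1.42% to 2.00% without 1 library).

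For Aqp2 with Slc26a4, in the order 2 UMIs, 1000 UMIs, 2000 UMIs and shallow cells, cluster 8 (77.3%) gave 60.9%, 34.5%, 59.8% and 63.6% (73.7% to 81.3% without 1 library), and cluster 7 (2.20%) gave 0.405%, 0.532%, 1.53% and 1.39% (1.89% to 2.47%); cluster 6 (1.26%) gave 0.230% at 2 UMIs (0.668% to 1.67%). For Aqp2 with Atp6v1g3, cluster 8 (98.2%) gave 89.1%, 65.5% and 82.2% in the first 3 settings (97.2% to 98.9%), cluster 6 (10.2%) gave 1.49%, 3.57% and 6.50% (9.63% to 11.2%), and cluster 7 (3.93%) gave 0.925%, 1.71%, 2.62% and 2.66% (2.84%, without library 6, to 4.30%). For Slc4a1 with Slc26a4, cluster 8 (25.5%) gave 15.5% at 2 UMIs and 10.9% at 1000 UMIs (24.2% to 26.8%), and cluster 7 (1.16%) gave 0.694%, 0.296% and, in shallow cells, 0.462% (0.946% to 1.34%). In each setting cluster 8 stayed the highest of the 3 clusters.

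The median principal share was 53.6% without the most abundant gene of each set, and 32.3% to 42.3% without 1 library. With libraries of at least 1 cell (6 libraries), the log2 UMI difference from cluster 6 was 0.75 and the log2 gene difference from cluster 7 was 0.47 (each exact permutation p = 0.03125, adjusted 0.09375). The gene difference from cluster 6 was 0.59 (exact p = 0.0625, adjusted 0.125) and the UMI difference from cluster 7 was 0.43 (exact p = 0.09375, adjusted 0.141). Without 1 library, the UMI differences were 0.77 to 1.00 (cluster 6) and 0.19 to 0.50 (cluster 7), and the gene differences 0.67 to 0.83 and 0.31 to 0.50. The mitochondrial difference from cluster 6 changed sign, to -1.41, -0.0165 and -1.65 points without libraries 1, 2 and 5 and 3.17 without library 6; from cluster 7 it was -4.11 to -0.162.

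At a pseudocount of 1 CPM, 653 genes were higher and 541 lower than in cluster 6, 827 higher and 182 lower than in cluster 7, 104 above both and 117 below both. With all cells summed, 144 were lower than in cluster 6, and with shared libraries alone (chosen after seeing the data) 1 was above both. Without 1 library the counts ran from 324 to 428 higher and 218 to 366 lower than in cluster 6, from 308 to 413 higher and 42 to 96 lower than in cluster 7 (96 without library 6), and from 4 to 37 above and 18 to 49 below both (37 without library 1, 49 without library 2). The cause was not tested. The depth tests pair clusters within libraries. No pairing by mouse was possible because the labels' replicate numbers, which number mice, are linked to no barcode number, and genotypes were not compared. At 110 cells, exact intervals of a share span up to about 20 points.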
